A study of Homo sapiens with 15 samples.

Results

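Senescent and young MRC-5 cells, primary fibroblasts from human fetal lung, were compared by RNA-seq with both groups carrying an empty vector. The comparison drew on 6 of the 15 libraries of the series. These were the 3 libraries of senescent cells and the 3 of young cells that the labels give as empty vector with control siRNA. Young cells, at population doubling 30, were infected with the empty pWPIR-GFP lentivirus and transfected with the control siRNA. Senescent cells had received the same empty virus while still pre-senescent and stopped dividing at population doubling 71. Their labels name the control siRNA, but no source used here says when it was given. All cells came from 1 line kept in low oxygen, so the groups also differed in passage number and in the time since infection. The labels of all 6 senescent libraries of the series, and of none of the 9 young libraries, name an earlier record of which they are a reanalysis. The state of the cells and the deposit could therefore not be told apart in any result that follows. The paper describes the counts of young and senescent cells as those of 3 biological replicates. No source used here says that the replicates came from separate cultures, and the p-values measure the spread between these libraries.

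Replicative senescence is a lasting exit from the cell cycle that normal human cells reach after many divisions, when shortened telomeres signal as damaged DNA. The CDK inhibitors p21 and p16 keep the retinoblastoma family of proteins unphosphorylated, and these then hold the genes of S phase and mitosis shut together with E2F factors and the DREAM complex. Senescent fibroblasts are also known for the loss of lamin B1, for a swollen lysosomal compartment and for a secretory phenotype of cytokines, proteases and growth factors that acts on neighbouring cells and on the matrix.

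Gene positions are those of GENCODE 44 on GRCh38. Total counts lay between 26725885 and 33934231 per library. Levels are normalised read counts given as CPM, that is, scaled to the size of the library. They do not correct for gene length and are compared between groups and not between genes. Changes are log2 fold changes of senescent against young cells ± SE from edgeR's quasi-likelihood test, and a gene is said to have risen or fallen where the adjusted p was below 0.05 and the absolute log2 fold change at least 1. Of 15799 genes tested, 2632 rose (16.7%) and 1857 fell (11.8%), with a median log2 fold change of 0.02 over all of them. The replicates were alike, with correlations of log2 CPM of 0.973 to 0.984 among senescent and 0.986 to 0.988 among young libraries, against 0.891 to 0.916 between the groups.

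The counts of the senescent libraries followed the GC content of the exons. Genes were put in 5 classes of equal size by GC content. In the class poorest in GC, with a median of 38.6%, 3.97% rose and 22.3% fell. In the class richest in GC, with a median of 60.8%, 40.5% rose and 4.28% fell. The trend was steepest in senescent replicate 3, which lay −0.97 from the young mean on the log2 scale in the poorest of 20 bins of genes and 1.41 in the richest. The test of senescent against young cells, and the counts of called genes per list, were therefore repeated with offsets. These remove, library by library, the dependence on GC content and on length, and the values so obtained are called GC-corrected. The offsets would also take out a change that truly follows GC content, and which of these holds was not tested. With them, 1692 genes rose (10.7%) and 1610 fell (10.2%), of which 1424 and 1299 were also called from the counts as deposited. These shares, and 16.7% and 11.8% for the counts as deposited, are the background for the counts of every list below.

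**Figure D1:**
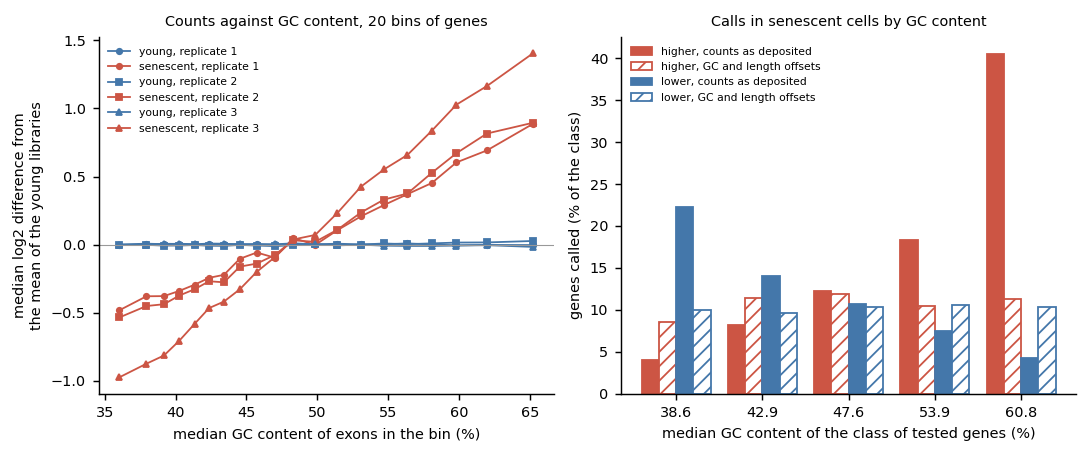
Left, median log2 difference of each of the 6 libraries from the mean of the young libraries (vertical axis) against the GC content of exons in percent, in 20 bins of tested genes. Right, percent of tested genes called higher or lower in senescent cells in 5 classes of equal size by GC content, from the counts as deposited and with offsets for GC content and length. The share called higher climbs from 3.97% to 40.5% across the classes without offsets and lies between 8.50% and 11.8% with them.

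Markers of fibroblasts were present in all 6 libraries. All 11 listed genes were tested, and their summed level was 24408 to 25754 CPM in young and 20759 to 24262 CPM in senescent libraries. Most of this sum was COL1A1 and COL1A2. Of the 11, 1 rose and 3 fell. COL3A1 was at 1461 to 1611 CPM in young and 280 to 524 CPM in senescent libraries, and THY1 at 193 to 216 and 396 to 539 CPM. Epithelial markers summed to 1.73 to 13.7 CPM in young and 1.12 to 2.17 CPM in senescent libraries, and ELF3, SFTPC and SCGB1A1 were at 0 in all 6. The highest of these sums belonged to young replicate 1, where the keratins KRT5 and KRT14 reached 7.29 and 3.87 CPM. Blood cell markers summed to at most 3.01 CPM, with CD3E and HBB at 0. Endothelial markers summed to 30.7 to 33.9 and 24.0 to 61.3 CPM, nearly all of it TEK, with EMCN at 0. Markers of smooth muscle and pericytes summed to 168 to 181 CPM in young and 342 to 481 CPM in senescent libraries, through NOTCH3, CNN1 and RGS5, which fibroblasts can also express. The other 3 genes of that list were low, with KCNJ8 at 1.74 to 2.5 CPM in young and 0.296 to 0.486 CPM in senescent libraries, DES at 0.521 to 0.662 and 0.0372 to 0.296 CPM, and MYH11 at most at 0.407 CPM. The part of these markers in the results was not tested.

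The clearest programme was the fall of the genes of division. Of 196 tested genes in 6 cell cycle lists, 157 (80.1%) fell and 2 rose, against 11.8% and 16.7% of all genes tested, and 188 had a log2 fold change below 0. With the GC correction 158 fell and 1 rose, and 149 fell under both. The median over the programme was −2.10, or −1.83 with the correction. Among the 101 members whose exons overlap no other gene, 85 fell and none rose. Values in the 3 senescent libraries lay apart from those in the 3 young libraries for 188 of the 196 genes. Such a gap was common among all tested genes. It held for 2473 of the 2632 that rose, 1825 of the 1857 that fell and 5917 of the 11310 not called.

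**Figure D2:**
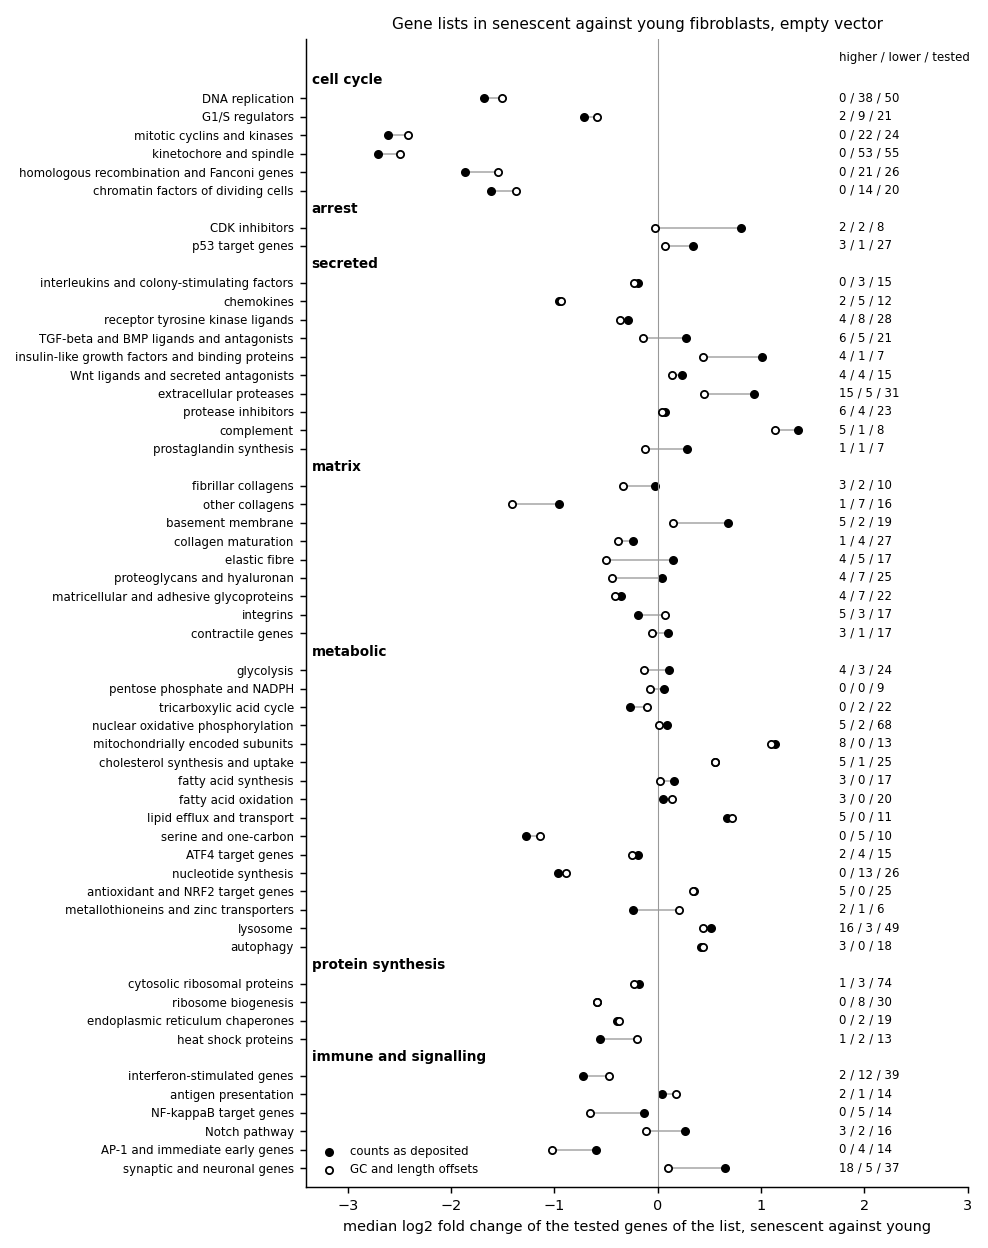
Median log2 fold change, senescent against young, of the tested genes of each of 53 gene lists, from the counts as deposited (black) and with offsets for GC content and length (white). The numbers at the right give the genes called higher, called lower and tested from the counts as deposited, and the mitotic and kinetochore lists lie farthest to the left.

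Promoters of the lists are shown first because the lists differ in the short sequences they hold. The CHR, read as TTTGAA, and the CCAAT box are elements through which the DREAM complex and the factor NF-Y act on genes of mitosis, and E2F words stand in many genes of S phase. The sequences, from RefSeq on GRCh38.p14, run from 250 bases before to 50 bases after the start of the gene. They lie at chr10:60778081-60778380 (plus strand), chr17:40417847-40418146 (minus strand) and chr3:127598161-127598460 (plus strand). Capitals mark the words searched on either strand. They are TTTGAA for the CHR, its reverse being TTCAAA, then CCAAT for the box of that name, its reverse being ATTGG. The E2F words were TTTCCCGC, then TTTCGCGC, then TTTGCCGC and also TTTGGCGC.
CDK1: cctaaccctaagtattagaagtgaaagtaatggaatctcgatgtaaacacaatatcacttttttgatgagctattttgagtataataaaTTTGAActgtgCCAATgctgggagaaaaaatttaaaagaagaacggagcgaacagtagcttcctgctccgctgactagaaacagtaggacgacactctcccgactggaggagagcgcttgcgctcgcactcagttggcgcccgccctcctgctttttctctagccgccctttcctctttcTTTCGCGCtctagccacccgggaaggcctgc
TOP2A: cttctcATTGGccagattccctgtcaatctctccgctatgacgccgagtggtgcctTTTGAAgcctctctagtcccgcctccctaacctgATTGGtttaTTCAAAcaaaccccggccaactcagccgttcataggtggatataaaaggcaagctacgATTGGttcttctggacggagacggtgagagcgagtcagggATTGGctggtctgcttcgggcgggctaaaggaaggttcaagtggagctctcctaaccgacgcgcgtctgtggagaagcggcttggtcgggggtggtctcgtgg
MCM2: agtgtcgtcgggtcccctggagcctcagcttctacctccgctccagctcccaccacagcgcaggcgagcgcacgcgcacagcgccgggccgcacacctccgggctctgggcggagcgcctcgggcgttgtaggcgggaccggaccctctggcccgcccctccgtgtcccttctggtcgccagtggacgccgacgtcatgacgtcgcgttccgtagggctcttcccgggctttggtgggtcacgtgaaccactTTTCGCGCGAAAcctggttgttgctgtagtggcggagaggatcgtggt

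The promoter of CDK1, the kinase that drives entry into mitosis, held a CHR, a CCAAT box and an E2F word. That of TOP2A, the topoisomerase that untangles sister chromatids, held 2 CHR and 4 CCAAT boxes. That of MCM2, a subunit of the replicative helicase, held 2 E2F words in opposite orientation and none of the others. Over the lists, a CHR stood in 71.4% of the 49 promoters of the kinetochore and spindle list and in 47.1% of the 17 of the mitotic cyclins and kinases, against 9.91% of 11468 promoters of tested genes. For DNA replication the CHR was at 2.44% of 41 promoters and an E2F word at 46.3%, against 5.13% of all. CCAAT boxes were at 69.4% of the kinetochore promoters and 36.3% of all. Among promoters of genes that fell, 18.6% held a CHR, and 7.08% among those that rose. With the GC correction these shares were 17% and 10.3%. These shares describe letters in a window and not binding.

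Mitotic regulators fell almost without exception. Of 24 mitotic cyclins and kinases, 22 fell and none rose, with a median of −2.61 (GC-corrected −2.42, 23 lower). CDK1 was at 47, 47.4 and 47.5 CPM in the young libraries and 8.4, 7.82 and 7.19 CPM in the senescent libraries. Every senescent value lay below every young one, a log2 fold change of −2.60 ± 0.11 (adjusted p = 1.7e-11, GC-corrected −1.87). CCNB1, the cyclin that activates CDK1, stood at 105, 94.8 and 101 CPM in the young libraries and 18.8, 13.7 and 19.4 CPM in the senescent libraries, and its change of −2.53 ± 0.12 was alike (GC-corrected −2.21). The checkpoint kinase TTK changed most in the list, from 23.3, 21.6 and 21.8 CPM to 1.26, 1.56 and 1.46 CPM, or −3.96 ± 0.17 (GC-corrected −3.49). CDC20, the activator of the anaphase-promoting complex, went from 73.7, 72.1 and 68.4 to 7.44, 7.19 and 9.23 CPM (−3.16 ± 0.11, GC-corrected −3.72). NEK2 and PBK, further mitotic kinases, fell too (−3.36 and −3.19).

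The machinery that chromosomes and spindles share followed the same course. Of 55 kinetochore and spindle genes, 53 fell, with a median of −2.71 (GC-corrected −2.49, 52 lower). All 55 had non-overlapping groups, as did 5917 of the 11310 tested genes that were not called. TOP2A was at 213, 209 and 203 CPM in the young libraries and 28.2, 33.7 and 20.8 CPM in the senescent libraries, a fall of 2.92 on the log2 scale (SE 0.13, GC-corrected −2.39). The proliferation marker MKI67 was at 68.1, 61.4 and 54.9 CPM in the young libraries and 7.73, 6.56 and 4.83 CPM in the senescent libraries, with the groups far apart (−3.27 ± 0.31, adjusted p = 1.6e-07, GC-corrected −3.30). Kinetochore proteins and spindle motors, which attach and move chromosomes, gave lower levels. CENPA, the histone H3 variant of centromeres, went from 13, 12.2 and 10.9 to 1.00, 1.15 and 1.33 CPM. KIF2C, a microtubule depolymerase, went from 37.9, 36.4 and 33.3 to 4.02, 2.67 and 4.15 CPM, the scaffold KNL1 from 24, 23.1 and 24.2 to 2.49, 3.00 and 1.39 CPM, and the spindle protein ASPM from 41.1, 37.1 and 38 to 5.13, 4.33 and 2.04 CPM. The log2 fold changes of these 4 genes lay between −3.38 and −3.31.

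Genes of DNA replication fell less steeply. Of 50, 38 fell and none rose (GC-corrected also 38, of which 35 were shared), with a median of −1.68. MCM2 was at 55.2, 53.6 and 51.1 CPM in the young libraries and 11.3, 15.7 and 12.6 CPM in the senescent libraries (−2.01 ± 0.12, adjusted p = 4.3e-10, GC-corrected −2.45). MCM10, which helps the helicase to start, went from 14.1, 15.3 and 12.8 to 1.64, 1.89 and 1.56 CPM, and its change of −3.06 ± 0.16 was the lowest of the list. The regulatory subunit DBF4 (−2.31), the clamp loader subunit RFC3 (−2.29) and the cohesion factor DSCC1 (−2.42) fell as well. PCNA, the sliding clamp that also serves in repair, kept more of its level. It stood at 127, 126 and 130.4 CPM in the young libraries and 74.9, 63.8 and 73.5 CPM in the senescent libraries, without overlap, and its log2 fold change of −0.85 ± 0.08 did not reach the limit of 1.

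Homologous recombination and Fanconi genes repair breaks and crosslinks in S phase. Of 26, 21 fell and none rose, with a median of −1.87 (GC-corrected −1.54, 20 lower). FANCD2 went from 15.5, 16.1 and 13.1 to 2.83, 2.89 and 1.94 CPM (−2.55 ± 0.16), BRCA2 from 9.1, 9.22 and 9.15 to 1.41, 1.56 and 0.713 CPM (−2.91 ± 0.27) and the nuclease EXO1 from 12.8, 13.4 and 12.9 to 0.967, 2.96 and 1.46 CPM (−2.86 ± 0.25). RAD51AP1, a protein of homologous recombination, fell by 2.47 on the log2 scale.

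Among chromatin factors of dividing cells, 14 of 20 fell and none rose, and with the GC correction 17 fell. LMNB1, lamin B1 of the nuclear envelope (chr5:126776623-126837020), was at 61, 59.5 and 58.6 CPM in the young libraries and 5.65, 5.15 and 4.6 CPM in the senescent libraries. This fall of 3.54 on the log2 scale (SE 0.12, adjusted p = 9.7e-13) was the largest of the list and was −3.61 with the correction. The DNA-bending proteins HMGB1 and HMGB2 were at 476, 462 and 468 CPM in young and 129, 132 and 134 CPM in senescent libraries, and at 94.9, 90.8 and 91.4 CPM in young and 15.2, 16.4 and 22 CPM in senescent libraries, in that order. Their log2 fold changes were −1.83 ± 0.07 and −2.37 ± 0.12, and −1.36 and −1.87 with the correction. EZH2, the methyltransferase that writes the repressive H3K27 mark, went from 22.8, 22.6 and 19.1 to 3.2, 4.22 and 5.09 CPM (−2.36 ± 0.15). TMPO, which binds lamins, fell by 2.43 on the log2 scale.

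Regulators of the passage from G1 to S phase were mixed. Of 21, 9 fell and 2 rose, and 8 fell and 1 rose with the GC correction. CCNA2, the cyclin of S phase and G2, went from 74.5, 75.2 and 66.8 to 8.29, 8.74 and 8.65 CPM (−3.07 ± 0.09, GC-corrected −2.67). The transcription factors MYBL2 and FOXM1, which switch on late cell cycle genes, changed by −2.78 ± 0.19 and −2.39 ± 0.15. The 2 that rose were D-type cyclins, which act with CDK4 and CDK6 at the start of the cycle. They were CCND2 and CCND1, and CCND3 was not among them. CCND2 rose from 14, 13.1 and 13 CPM to 119, 96.8 and 149.6 CPM, by 3.19 ± 0.17 (adjusted p = 1.4e-10, GC-corrected 3.22). CCND1 was at 1913, 1956 and 1972 CPM in the young libraries and 3824, 4604 and 3338 CPM in the senescent libraries, at the limit with 1.01 ± 0.10. It was not called with the GC correction (0.81), without senescent replicate 2 (0.88) or without young replicate 1 (0.99).

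**Figure D3:**
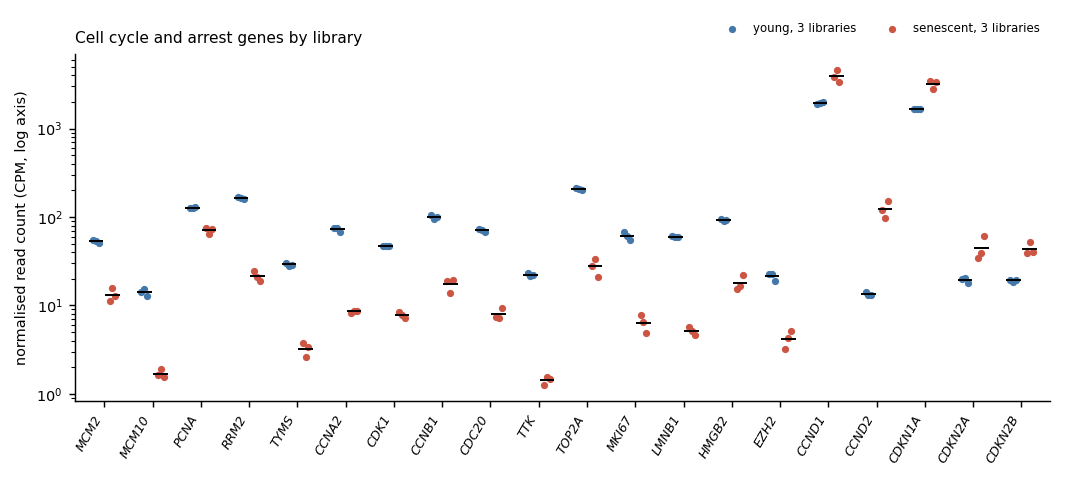
Normalised read counts in CPM on a log axis for 20 genes of the cell cycle, of nucleotide supply and of arrest, with 1 dot for each of the 3 young and 3 senescent libraries and a black bar at the mean. The genes from MCM2 to EZH2 lie lower in every senescent than in every young library, while CCND2, CDKN2A and CDKN2B lie higher.

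Arrest genes were called at shares near those of all genes. Of 35 tested, 5 rose (14.3%) and 3 fell (8.57%), against 16.7% and 11.8% of all genes. With the GC correction 3 rose and 3 fell (8.57% each), against 10.7% and 10.2%. The median of 0.44 was 0.02 with the correction. CDKN1A, which encodes p21, was at 1649.7, 1662 and 1678 CPM in the young libraries and 3462, 2771 and 3324 CPM in the senescent libraries. The groups did not overlap, and the log2 fold change of 0.94 ± 0.09 (adjusted p = 1.9e-07) stayed just under 1. With the correction it was 0.42. CDKN2A, which encodes p16 and ARF (chr9:21967752-21995301), was at 20.01, 20.6 and 18 CPM in the young libraries and 34.3, 38.7 and 61.4 CPM in the senescent libraries, with senescent replicate 3 the highest. Its rise of 1.20 ± 0.17 was 0.88 without that library and 0.74 with the correction, neither of them called. CDKN2B, which encodes p15, was at 19.6, 18.6 and 19.2 CPM in the young libraries and 38.7, 51.6 and 40.2 CPM in the senescent libraries and rose under both (1.19 ± 0.10, GC-corrected 1.39). CDKN2C (−2.74) and CDKN3 (−3.13) fell, the latter a phosphatase of CDKs that dividing cells make. CDKN1A was called without senescent replicate 2 (1.03).

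Of 27 p53 target genes, 3 rose and 1 fell, or 2 and 1 with the correction. PERP, a membrane protein induced by p53, was at 214, 207 and 196 CPM in the young libraries and 479, 425 and 409 CPM in the senescent libraries and rose under both (1.09 ± 0.08, GC-corrected 1.60). PLK3 (1.31, GC-corrected 0.56) and the apoptosis gene BBC3 (1.04, GC-corrected 0.02) were called only without the correction. TIGAR, which lowers glycolytic flux, fell by 1.25 on the log2 scale. TERF2, which encodes the telomere protein TRF2, was at 24, 25.5 and 21.9 CPM in the young libraries and 23.3, 25.6 and 26 CPM in the senescent libraries, and its log2 fold change was 0.07 ± 0.24 (adjusted p = 0.81). BBC3 was not called without senescent replicate 3 (0.80), young replicate 1 (0.98) or young replicate 2 (1.000).

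Genes of secreted signals and proteases changed in both directions. Of 167 tested in 10 lists, 47 rose and 37 fell, that is 28.1% and 22.2% against 16.7% and 11.8% of all genes, and 41 rose and 35 fell with the GC correction, 35 and 32 of them under both. Of 15 tested interleukins and colony-stimulating factors, 3 fell and none rose, or 3 and 1 with the correction. The list summed to 195 CPM in young and 263 CPM in senescent cells. IL6, the cytokine most often measured in senescent cells, was at 2.89, 1.88 and 2.12 CPM in the young libraries and 2.31, 2.37 and 3.01 CPM in the senescent libraries, with overlapping groups (0.17 ± 0.20, adjusted p = 0.48). IL1B was at 1.53, 2.44 and 1.64 CPM in the young libraries and 0.0372, 0.333 and 0.356 CPM in the senescent libraries and fell by 2.91 on the log2 scale (SE 0.52). IL1A, the related agonist of the same receptor, was under 1 CPM in every library and fell (−2.35 ± 0.71), as did IL34, a ligand of the CSF1 receptor (−1.83 ± 0.55).

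Among 12 tested chemokines, which attract leukocytes, 5 fell and 2 rose, or 5 and 1 with the correction. CXCL8, an attractant of neutrophils, was at 11.7, 19.6 and 16.2 CPM in the young libraries and 0.669, 5.78 and 5.44 CPM in the senescent libraries, lowest in senescent replicate 1 (−1.99 ± 0.42, adjusted p = 6.4e-04, GC-corrected −1.17). CXCL12, which fibroblasts make to hold stem cells and lymphocytes, went from 11.8, 10.8 and 10.4 to 1.9, 1.78 and 2.49 CPM (−2.41 ± 0.18, GC-corrected −2.41). CCL2, an attractant of monocytes, was at 20.05, 22.1 and 19 CPM in the young libraries and 9.04, 8.22 and 9.56 CPM in the senescent libraries (−1.19 ± 0.11, GC-corrected −1.04). CXCL1 (−2.16) and CXCL5 (−3.05) fell from young levels of 0.732 to 2.11 CPM. CXCL14 (4.60) and CCL26 (1.35) rose, and neither passed 1.39 CPM in any library. The rise of CCL26 was not called with the correction. CCL26 was not called without senescent replicate 3 (1.22), young replicate 1 (1.08) or young replicate 2 (0.96).

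Complement genes, most of which make the proteins of the blood cascade that fibroblasts also secrete, were the list with the largest share of rises. Of 8 tested, 5 rose and 1 fell, the same with the correction. Values did not overlap for any of the 8, nor for 5917 of the 11310 tested genes that were not called. C3, the central component, was at 0.488, 0.206 and 0.186 CPM in the young libraries and 4.02, 5.48 and 5.83 CPM in the senescent libraries (4.12 ± 0.42, GC-corrected 3.82). C7, a part of the membrane attack complex (chr5:40909492-41020216), was at 0.558, 0.352 and 0.595 CPM in the young libraries and 27, 17 and 15.3 CPM in the senescent libraries (5.31 ± 0.30, adjusted p = 2.9e-10, GC-corrected 5.68). CLU, a chaperone that inhibits that complex, was at 195, 167 and 149.6 CPM in the young libraries and 492, 366 and 595 CPM in the senescent libraries (1.50 ± 0.19). C1S (1.20) and CFD (2.00) also rose.

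Growth factors that signal through receptor tyrosine kinases split. Of 28 tested, 4 rose and 8 fell, and 6 rose and 7 fell with the correction. PDGFB, a mitogen of mesenchymal cells, was at 1.39, 2.03 and 1.19 CPM in the young libraries and 21.4, 20.001 and 20.7 CPM in the senescent libraries, a rise of 3.73 ± 0.20 (adjusted p = 1.6e-10, GC-corrected 3.00). ANGPTL4 went from 7.08, 6.75 and 8.67 to 19.4, 31.9 and 46.3 CPM (2.12 ± 0.24) and ANGPTL2 from 77, 70.6 and 72.2 to 223, 179 and 176 CPM (1.40 ± 0.10), both secreted relatives of the angiopoietins. NRG1, a ligand of ERBB receptors, rose by 1.05 ± 0.12, and by less than 1 without senescent replicate 1 (0.93) or replicate 2 (0.97). MDK, the heparin-binding factor midkine, was at 106, 103 and 95.9 CPM in the young libraries and 9.59, 7.96 and 15 CPM in the senescent libraries and fell by 3.22 on the log2 scale (SE 0.17, GC-corrected −4.29). FGF5 went from 292, 291 and 309 to 79.1, 80.2 and 44.1 CPM (−2.13 ± 0.16), and PDGFD fell by 2.70. Values of the 4 that rose and of these 3 did not overlap between the groups. The same held for 2473 of all 2632 genes that rose and 1825 of all 1857 that fell.

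In the TGF-beta and BMP family, 6 of 21 rose and 5 fell, while 3 rose and 6 fell with the correction. FST, which binds and blocks activins, was at 335, 364 and 327 CPM in the young libraries and 61.8, 44.4 and 52.2 CPM in the senescent libraries (−2.69 ± 0.11, adjusted p = 7.0e-12, GC-corrected −2.53). INHBA, the subunit of activin A, was at 261, 289 and 294 CPM in the young libraries and 136, 199 and 90.7 CPM in the senescent libraries, with a log2 fold change of −0.99 ± 0.18 that lay at the limit. GDF15, a circulating stress factor, was at 101, 104 and 121 CPM in the young libraries and 132, 200.1 and 282 CPM in the senescent libraries, highest in senescent replicate 3 (0.92 ± 0.18, GC-corrected 0.15). GDF6 rose by 1.79 ± 0.12 and the BMP antagonist NOG by 1.31 ± 0.12, the latter 0.64 and not called with the correction. GDF5 (−2.52), BMP5 (−3.68) and CHRDL1 (−2.83) fell, CHRDL1 not called without young replicate 1 (−2.41). GDF15 was called without senescent replicate 1 (1.14). INHBA was called without senescent replicate 2 (−1.32) or young replicate 1 (−1.04).

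Binding proteins of the insulin-like growth factors, which hold these factors in the tissue, were higher for several members. Of 7 tested genes in this list, 4 rose and 1 fell, or 2 and 1 with the correction. IGFBP7 was at 92.5, 86.7 and 96.6 CPM in the young libraries and 784, 662 and 963 CPM in the senescent libraries, a rise of 3.13 ± 0.13 (adjusted p = 6.9e-12) that was 3.09 with the GC correction. IGFBP2 went from 2.41, 3.29 and 3.54 to 20.7, 20.6 and 36.1 CPM (3.07 ± 0.24, GC-corrected 2.56). IGFBP4, at 1074, 1115 and 1014 CPM in the young libraries and 2519.9, 2158 and 3297 CPM in the senescent libraries, had a change of 1.32 ± 0.12 that was 0.43 with the correction, and IGFBP6, at 1.01 ± 0.13, one of 0.00. IGFBP5 was at 1913, 1806 and 1538 CPM in the young libraries and 4445, 2802 and 1988 CPM in the senescent libraries and was not called (0.81 ± 0.22). IGFBP3 stood at 68.3, 71.8 and 58.9 CPM in the young libraries and 61.7, 58.5 and 57.5 CPM in the senescent libraries, with overlap between the groups (−0.16 ± 0.11). IGF2 fell by 6.57 on the log2 scale and shares 44.4% of its exonic bases with another gene. IGFBP5 was called without senescent replicate 3 (1.03). IGFBP6 was not called without senescent replicate 1 (0.995), senescent replicate 3 (0.82) or young replicate 3 (0.97).

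Wnt signals are local cues for growth and cell fate. Of 15 tested genes, 4 rose and 4 fell, or 4 and 3 with the correction. WNT16 (chr7:121325367-121341104) was at 34.5, 34.3 and 30.7 CPM in the young libraries and 283, 242 and 165 CPM in the senescent libraries (2.79 ± 0.15, adjusted p = 1.4e-10, GC-corrected 3.18). The antagonist DKK1 went the other way, from 68.9, 61.6 and 64.2 to 15, 12.4 and 13.2 CPM (−2.26 ± 0.11, GC-corrected −2.01). DKK3, a related secreted protein, was at 1159.7, 1115 and 1091 CPM in the young libraries and 2852, 2486 and 2958 CPM in the senescent libraries (1.30 ± 0.10), and 47.5% of its exonic bases are shared with another gene. WNT9A (2.90) and DKK2 (1.89) rose, and WNT2 (−4.67), WNT7B (−3.27) and FRZB (−1.01) fell, none of them above 10.6 CPM in any library, FRZB only without the correction. FRZB was not called without senescent replicate 3 (−0.73) or young replicate 3 (−0.91).

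Proteases that act outside the cell rose more often than they fell. Of 31 tested, 15 rose and 5 fell, or 12 and 5 with the GC correction, 10 and 5 of these under both. MMP3, stromelysin, was at 25, 28.8 and 28.5 CPM in the young libraries and 119, 191 and 224 CPM in the senescent libraries, lowest among senescent libraries in replicate 1 (2.70 ± 0.23, adjusted p = 5.5e-08, GC-corrected 2.86). ADAMTS19 rose by 2.91 ± 0.26 and ADAMTS10 by 2.86 ± 0.28, while MMP15, at 2.01, was 0.98 with the correction. The collagenase MMP1 stood at 743, 733 and 841 CPM in the young libraries and 177, 454 and 532 CPM in the senescent libraries. Its change of −0.99 ± 0.27 was just short of the limit, and senescent replicate 1 was far below the other 2. MMP2, the gelatinase that fibroblasts make all the time, was at 798, 804 and 785 CPM in the young libraries and 995, 1021 and 1073 CPM in the senescent libraries (0.37 ± 0.08, GC-corrected −0.02). ADAMTS6 (−3.64), ADAMTS4 (−2.87), MMP17 (−1.80), MMP16 (−1.77) and HTRA3 (−1.16) fell, each also with the correction. MMP1 was called without senescent replicate 2 (−1.13), senescent replicate 3 (−1.31), young replicate 1 (−1.03) or young replicate 2 (−1.03).

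Of 23 protease inhibitors tested, 6 rose and 4 fell, or 6 and 3 with the correction, 5 and 2 of them under both. CST3, cystatin C, an inhibitor of cathepsins, was at 111, 103 and 86.9 CPM in the young libraries and 482, 412 and 753 CPM in the senescent libraries (2.46 ± 0.17, adjusted p = 4.9e-09, GC-corrected 2.52). A2M, which traps proteases of every class, went from 9.41, 11.2 and 8.74 to 58.6, 64.7 and 56.9 CPM (2.61 ± 0.20), and SERPING1, the inhibitor of complement C1, from 3.45, 2.7 and 1.82 to 17.6, 15.5 and 21 CPM (2.76 ± 0.24). TIMP1, an inhibitor of matrix metalloproteases, was at 647, 628 and 628 CPM in the young libraries and 1582, 1505 and 2531 CPM in the senescent libraries, and its rise of 1.56 ± 0.14 was 0.85 with the correction and then not called. SERPINB9 (−3.17), TIMP4 (−2.28), SERPINB7 (−1.32) and SERPINB2 (−1.20) fell, the last 2 not called with the correction. SERPINB2 was not called without senescent replicate 1 (−0.88).

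In prostaglandin synthesis, 1 of 7 tested genes rose and 1 fell, also with the correction. PTGS2, the inducible cyclooxygenase, was at 6.17, 7.99 and 7.33 CPM in the young libraries and 3.64, 15.7 and 7.97 CPM in the senescent libraries, highest in senescent replicate 2 and with overlapping groups (0.34 ± 0.34). TBXAS1, thromboxane synthase, was at 30.2, 32.1 and 33 CPM in the young libraries and 82.3, 79.1 and 86.8 CPM in the senescent libraries (1.38 ± 0.10), and PTGDS fell by 3.31 on the log2 scale from levels of 1.75 to 2.41 CPM.

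**Figure D4:**
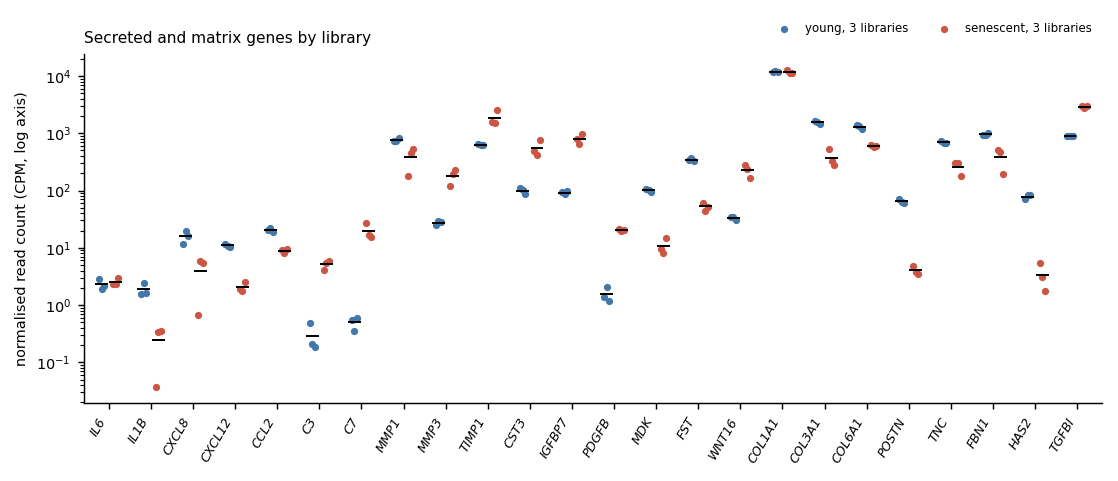
Normalised read counts in CPM on a log axis for 24 genes of secreted proteins and of the matrix, with 1 dot for each of the 3 young and 3 senescent libraries and a black bar at the mean. C3, C7, MMP3, TIMP1, CST3, IGFBP7, PDGFB, WNT16 and TGFBI lie higher in senescent cells, CXCL8, CXCL12, MDK, FST, COL3A1, POSTN and HAS2 lie lower, and IL6 and COL1A1 overlap.

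Genes of the extracellular matrix also moved both ways. Of 170 tested in 9 lists, 30 rose (17.6%) and 38 fell (22.4%), against 16.7% and 11.8% of all genes. With the GC correction 21 rose (12.4%) and 47 fell (27.6%), against 10.7% and 10.2%, and 17 and 32 were called under both. The most abundant collagens were not called. COL1A1, the alpha 1 chain of collagen I, was at 11789.8, 12288 and 11671 CPM in the young libraries and 12705, 11406 and 11102 CPM in the senescent libraries, with overlap (−0.02 ± 0.10, adjusted p = 0.87). COL1A2 was at 7272, 7166 and 6722 CPM in the young libraries and 7735, 6694 and 6140.3 CPM in the senescent libraries, again with overlap (−0.04 ± 0.11). With the correction COL1A1 was at −0.76 and COL1A2 at 0.09. COL3A1, the chain of collagen III, was at 1611, 1569.9 and 1461 CPM in the young libraries and 524, 327 and 279.6 CPM in the senescent libraries and fell by 2.04 on the log2 scale (SE 0.18, GC-corrected −2.08).

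Other fibrillar collagens changed by gene. COL5A3 went from 30.9, 37.4 and 31.6 to 3.16, 4.11 and 3.56 CPM (−3.20 ± 0.21, GC-corrected −4.13). COL11A1, a minor fibril collagen of cartilage, went from 36.7, 38.2 and 32.2 to 153, 97.9 and 66.9 CPM (1.57 ± 0.23, GC-corrected 1.66). COL11A2 rose from at most 0.174 CPM (3.09), and COL27A1 (1.23) was not called with the correction or without senescent replicate 3 (0.99).

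Non-fibrillar collagens were mostly lower. Of 16, 7 fell and 1 rose, and 11 fell with the correction. COL6A1, of the beaded microfibrils around cells, was at 1370.2, 1350.2 and 1207 CPM in the young libraries and 627, 578 and 588 CPM in the senescent libraries (−1.13 ± 0.09, adjusted p = 3.8e-08, GC-corrected −2.10). COL12A1, which sits on the surface of fibrils, was at 1142, 1109 and 1159 CPM in the young libraries and 521, 406 and 167 CPM in the senescent libraries, lowest in senescent replicate 3 (−1.64 ± 0.27). COL15A1 went from 49.1, 46.6 and 45.8 to 7.21, 3.74 and 3.63 CPM (−3.28 ± 0.24). COL18A1, the source of endostatin, was at 106, 104 and 95.3 CPM in the young libraries and 344, 321 and 336 CPM in the senescent libraries, and its rise of 1.71 ± 0.12 was 0.50 with the correction. Collagen genes together held 3.36% ± 0.09 of all counts in young and 2.77% ± 0.33 in senescent libraries (SD, n = 3 each), with a two-sided exact permutation p of 0.1, the smallest that 3 against 3 can give.

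Basement membrane genes make the sheet under epithelia and around muscle. Of 19, 5 rose and 2 fell, or 4 and 2 with the correction. COL4A1, the main network collagen, was at 1019, 1096 and 1091 CPM in the young libraries and 928, 1094 and 637 CPM in the senescent libraries, with overlap (−0.27 ± 0.14). LAMA5, a laminin chain, was at 47.2, 41.6 and 40.9 CPM in the young libraries and 261, 204 and 156 CPM in the senescent libraries (2.26 ± 0.17, GC-corrected 1.16), and COL4A6 went from 13.5, 11.3 and 12.1 to 82.5, 71.6 and 51.2 CPM (2.48 ± 0.25). LAMA3 rose by 2.15 ± 0.47. LAMB3 (1.11, GC-corrected 0.46) and AGRN (1.07, GC-corrected −0.07) were called only without the correction. LAMA2 and the linker NID1 fell (−1.75 and −1.19), NID1 not called without senescent replicate 3 (−0.98). LAMB3 was not called without senescent replicate 3 (0.92).

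Few of the enzymes that mature collagen were called. Of 27, 4 fell and 1 rose, and 6 fell and none rose with the correction. LOX, which crosslinks collagen and elastin, was at 468, 458 and 434 CPM in the young libraries and 252, 305 and 189 CPM in the senescent libraries, without overlap, and its log2 fold change of −0.87 ± 0.12 was under the limit (GC-corrected −0.43). P4HA1, a prolyl hydroxylase, fell by 1.10 on the log2 scale and the lysyl hydroxylase PLOD1 rose by 1.15, neither of them called with the correction. COLGALT2 (−1.33), ADAMTS3 (−2.19) and PCOLCE2 (−2.16) fell. LOX was called without senescent replicate 2 (−1.04). P4HA1 was not called without senescent replicate 3 (−0.98).

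Elastic fibres give lung tissue its recoil. Of 17 genes, 5 fell (29.4%) and 4 rose (23.5%), against 11.8% and 16.7% of all genes. With the correction 6 fell (35.3%) and 3 rose (17.6%), against 10.2% and 10.7%. ELN, elastin, was at 27.5, 31.3 and 32.6 CPM in the young libraries and 0.112, 0.111 and 0.292 CPM in the senescent libraries, a fall of 7.40 on the log2 scale (SE 0.23), among the largest of all genes. The fibrillins, which form the scaffold of the fibre, fell in part with senescent replicate 3 lowest. FBN2 was at 204, 205 and 209.9 CPM in the young libraries and 50.2, 26.7 and 12 CPM in the senescent libraries (−2.80 ± 0.31) and FBN1 at 913, 940.4 and 999 CPM in the young libraries and 511, 462 and 195 CPM in the senescent libraries (−1.29 ± 0.23). The microfibril protein MFAP2 (−2.20) and EMILIN2 (−2.69) fell. LTBP3, which tethers latent TGF-beta, rose from 45, 44.3 and 39.9 to 268, 243 and 306 CPM (2.66 ± 0.10, GC-corrected 1.81), and MFAP4 rose by 1.63 ± 0.16. EFEMP2 (1.45) and LTBP4 (1.25) were at 0.65 and 0.25 with the correction and not called. FBN1 was not called without senescent replicate 3 (−0.99).

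Among proteoglycans and hyaluronan genes, 7 of 25 fell and 4 rose, or 7 and 2 with the correction. HAS2, the main hyaluronan synthase of fibroblasts, was at 69.9, 82 and 81.9 CPM in the young libraries and 5.35, 3.07 and 1.75 CPM in the senescent libraries (−4.53 ± 0.25, adjusted p = 2.4e-10, GC-corrected −3.91). CEMIP, which takes part in the breakdown of hyaluronan, was at 242, 218 and 188 CPM in the young libraries and 45.1, 35.1 and 23.6 CPM in the senescent libraries (−2.64 ± 0.21). The heparan sulphate carriers GPC4 and GPC6 moved in opposite directions, by 2.68 ± 0.12 and −3.03 ± 0.27. DCN, decorin, was at 239, 203 and 195 CPM in the young libraries and 266, 187 and 201 CPM in the senescent libraries, with overlap (0.04 ± 0.14, GC-corrected 0.68). PODN rose by 2.42 ± 0.13, while HYAL2 (1.08) and HAPLN3 (1.04) were not called with the correction. HAPLN3 was not called without senescent replicate 3 (0.88) or young replicate 1 (0.98). HYAL2 was not called without senescent replicate 3 (0.87).

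Matricellular proteins tune adhesion rather than bear load. Of 22, 7 fell and 4 rose, or 7 and 3 with the correction. POSTN, periostin, was at 71.1, 62.8 and 59.4 CPM in the young libraries and 4.8, 3.85 and 3.47 CPM in the senescent libraries (−4.00 ± 0.16, adjusted p = 7.1e-12, GC-corrected −3.33). CTHRC1, a marker of matrix-producing fibroblasts in injured lung, was at 273, 272 and 293 CPM in the young libraries and 55.2, 58.1 and 71.1 CPM in the senescent libraries (−2.18 ± 0.09), and TNC, tenascin C, at 719, 674 and 679.6 CPM in the young libraries and 306, 302 and 176 CPM in the senescent libraries (−1.40 ± 0.16). TGFBI, a ligand of integrins, was at 882, 910.0 and 913 CPM in the young libraries and 2936, 2709 and 2958 CPM in the senescent libraries and rose by 1.67 ± 0.08 (GC-corrected 1.53). FN1, fibronectin, stood at 7423, 7144 and 7412 CPM in the young libraries and 7586, 7584 and 3871 CPM in the senescent libraries, where senescent replicate 3 alone was low (−0.21 ± 0.19). SMOC1 (2.81), COMP (2.43) and CCN4 (1.44) rose from young levels of at most 8.93 CPM, COMP not with the correction and CCN4 not without senescent replicate 1 (0.66).

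Integrins bind cells to this matrix. Of 17, 5 rose (29.4%) and 3 fell (17.6%), against 16.7% and 11.8% of all genes. With the correction 3 rose (17.6%) and 2 fell (11.8%), against 10.7% and 10.2%. ITGA7, a laminin receptor of muscle, was at 13.6, 13.7 and 15.1 CPM in the young libraries and 116, 102 and 117 CPM in the senescent libraries (2.99 ± 0.09, adjusted p = 1.7e-13, GC-corrected 2.55). ITGB3, of the vitronectin receptor, went from 10.1, 9.78 and 11.3 to 56.5, 85.7 and 71.5 CPM (2.78 ± 0.14), and ITGA11, a collagen receptor, from 122, 117 and 112 to 378, 376 and 326 CPM (1.62 ± 0.11). ITGA3 (1.21) and ITGB5 (1.19) rose, and ITGA4 (−1.30) and ITGB8 (−1.18) fell, without the correction only. ITGA9, which was under 1 CPM in every library, fell by 2.08. ITGA9 was not called without senescent replicate 1 (−1.72), young replicate 1 (−1.59) or young replicate 3 (−1.94). ITGB8 was not called without senescent replicate 2 (−0.90) or senescent replicate 3 (−0.79).

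Of 17 contractile genes, which myofibroblasts and smooth muscle share, 3 rose (17.6%) and 1 fell (5.88%), against 16.7% and 11.8% of all genes, and 3 rose and 3 fell with the correction. CNN1, calponin, was at 33, 34.1 and 32 CPM in the young libraries and 139, 94 and 143 CPM in the senescent libraries (1.92 ± 0.17, GC-corrected 1.30). ACTA2, alpha smooth muscle actin, was at 39.3, 38.1 and 36.8 CPM in the young libraries and 86, 54.3 and 70.9 CPM in the senescent libraries, without overlap, at 0.89 ± 0.16 as deposited and 1.06 with the correction, where it was called. TAGLN, transgelin, was at 517, 543 and 508 CPM in the young libraries and 979, 792 and 1126 CPM in the senescent libraries (0.89 ± 0.12, GC-corrected 0.37). LMOD1 rose by 1.77 ± 0.27, MYL9 was at the limit (1.00, GC-corrected 0.25), and DES, under 1 CPM throughout, fell by 1.52. ACTA2 (1.04) and TAGLN (1.01) were called without senescent replicate 2. DES was not called without senescent replicate 1 (−1.06) or young replicate 1 (−1.43). MYL9 was not called without senescent replicate 3 (0.80) or young replicate 3 (0.98).

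Metabolic genes were called at shares near those of all genes. Of 358 tested in 16 lists, 61 rose and 34 fell, or 17% and 9.50% against 16.7% and 11.8%. With the GC correction 33 and 35 were called (9.22% and 9.78% against 10.7% and 10.2%), 28 and 28 of them under both. The supply of nucleotides and one-carbon units for growth fell most clearly. Of 26 genes of nucleotide synthesis, 13 fell and none rose, or 11 and 1 with the correction, 9 and none of them under both. RRM2, the S-phase subunit of ribonucleotide reductase, was at 169.5, 164 and 160.3 CPM in the young libraries and 24.2, 20.8 and 18.8 CPM in the senescent libraries (−2.95 ± 0.12, adjusted p = 4.9e-12, GC-corrected −3.03). TK1, thymidine kinase, was at 107, 104 and 98.1 CPM in the young libraries and 31.4, 17.1 and 27 CPM in the senescent libraries (−2.03 ± 0.17). TYMS, thymidylate synthase, went from 30.3, 27.9 and 28.9 to 3.76, 2.59 and 3.37 CPM (−3.16 ± 0.14), with 47.9% of its exonic bases shared with another gene. ADSL, of purine synthesis, fell by 3.92 on the log2 scale and shares 11.1% of its exonic bases with another gene.

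Genes of serine synthesis and of the folate cycle of mitochondria fell in part. Of 10 genes, 5 fell and none rose, the same number with the correction. The groups did not overlap for any of the 10, nor for 5917 of the 11310 tested genes that were not called. PHGDH, the first enzyme of serine synthesis, was at 104, 103 and 98.3 CPM in the young libraries and 38.9, 23.9 and 33.4 CPM in the senescent libraries (−1.67 ± 0.16, GC-corrected −1.88). PSAT1, the next, was at 148, 148 and 134 CPM in the young libraries and 50.8, 26.6 and 24.5 CPM in the senescent libraries (−2.08 ± 0.21, GC-corrected −1.70). MTHFD2, of the mitochondrial folate cycle, was at 97.8, 106 and 97.4 CPM in the young libraries and 38.4, 27.6 and 24.8 CPM in the senescent libraries (−1.73 ± 0.13, GC-corrected −1.48). SHMT1 (−1.61) and ALDH1L2 (−1.63) fell as well. These enzymes are known targets of ATF4, and among 15 other ATF4 target genes 4 fell and 2 rose, or 5 and none with the correction. SLC7A5, the carrier of large neutral amino acids, was at 159.8, 163 and 159 CPM in the young libraries and 65, 64.9 and 55.3 CPM in the senescent libraries (−1.38 ± 0.09). VLDLR (−1.48) and CEBPG (−1.33) also fell, CEBPG not with the correction, while DDIT4 (1.06, GC-corrected 0.43) and CEBPB (1.01, GC-corrected −0.15) were called only without it. ASNS is given with the very large changes. CEBPB was not called without senescent replicate 3 (0.82), young replicate 1 (0.99) or young replicate 3 (0.996). DDIT4 was not called without senescent replicate 3 (0.90).

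Glycolysis showed no common direction. Of 24 genes, 4 rose (16.7%) and 3 fell (12.5%), against 16.7% and 11.8% of all genes. With the correction none rose and 3 fell (12.5%), against 10.7% and 10.2%. The 3 that fell as deposited were SLC2A3, ALDOA and LDHB. ALDOA and LDHB share 54.2% and 33.4% of their exonic bases and are given with the very large changes. SLC2A3, a glucose carrier of high affinity, was at 245, 255 and 257 CPM in the young libraries and 106, 107 and 84.9 CPM in the senescent libraries (−1.34 ± 0.09, GC-corrected −1.22). SLC2A1, the common carrier, was at 323, 340.0 and 302 CPM in the young libraries and 549.9, 369 and 372 CPM in the senescent libraries (0.42 ± 0.12). LDHA, lactate dehydrogenase A, was at 1122, 1139 and 1132 CPM in the young libraries and 589, 625 and 721 CPM in the senescent libraries, without overlap and under the limit (−0.81 ± 0.09). PFKL (1.08), the lactate exporter SLC16A3 (1.30), PFKFB4 (1.09) and HK2 (1.00) rose, and with the correction their values were 0.00, 0.13, 0.62 and 0.86. None of 9 genes of the pentose phosphate pathway and NADPH supply was called. HK2 was not called without senescent replicate 1 (0.91), senescent replicate 2 (0.92) or young replicate 2 (0.97). PFKFB4 (0.81) and PFKL (0.93) were not called without senescent replicate 3.

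Genes of respiration lie in both the nuclear and the mitochondrial genome. Of 68 nuclear genes of oxidative phosphorylation, 5 rose and 2 fell, and with the correction none rose and 3 fell. The risers NDUFA3, NDUFA11, NDUFB10, NDUFS7 and ATP5F1D had GC contents of 57.3% to 65%, and senescent replicate 3 was the highest library for each. UQCR10 (−2.03) and ATP5MG (−2.09) fell. Of 22 genes of the tricarboxylic acid cycle, FH (−1.25, GC-corrected −0.70) and SDHA fell and none rose, and 1 fell with the correction. ATP5F1D (0.77), NDUFA11 (0.86) and NDUFA3 (0.89) were not called without senescent replicate 3. NDUFB10 was not called without senescent replicate 3 (0.66), young replicate 2 (0.98) or young replicate 3 (0.98). NDUFS7 was not called without senescent replicate 3 (0.57), young replicate 1 (0.85) or young replicate 3 (1.17).

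Subunits encoded by mitochondrial DNA sit in the core of the respiratory chain. Of 13, 8 rose and none fell, and all 13 had a log2 fold change above 0, with a median of 1.14 (GC-corrected 1.09, 7 higher). MT-ND6 was at 188, 188 and 339 CPM in the young libraries and 633, 1365 and 1384 CPM in the senescent libraries (2.24 ± 0.26, adjusted p = 1.6e-06). MT-CYB was at 625, 642 and 993 CPM in the young libraries and 1054, 2158 and 2014 CPM in the senescent libraries (1.21 ± 0.22, GC-corrected 1.22) and MT-ND5 at 489, 466 and 775 CPM in the young libraries and 1192, 2695 and 1193 CPM in the senescent libraries (1.55 ± 0.26). Senescent replicate 1 was the lowest or close to the lowest senescent library for each of these. All mitochondrially encoded genes together took 1.62%, 1.71% and 2.52% of counts in young and 2.22%, 4.21% and 3.62% in senescent libraries. These ranges overlapped, with a two-sided exact permutation p of 0.2.

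Fuel choice and fat handling held the largest rise of the metabolic lists. PDK4, which turns pyruvate away from the mitochondria in fasting, was at 0, 0.0881 and 0 CPM in the young libraries and 6.92, 12 and 9.91 CPM in the senescent libraries (8.01 ± 0.50, GC-corrected 8.62). It was 1 of 3 genes that rose among 20 of fatty acid oxidation, none of which fell, and 2 rose with the correction. ETFB rose by 1.61 ± 0.24, and ACADS (1.00) was at −0.00 with the correction. TXNIP, which restrains glucose uptake and thioredoxin, was at 54.9, 52.2 and 51.6 CPM in the young libraries and 520.0, 389 and 332 CPM in the senescent libraries (2.97 ± 0.13, adjusted p = 1.7e-11, GC-corrected 3.31). ACADS was not called without senescent replicate 3 (0.85) or young replicate 3 (0.91).

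Lipid efflux and transport move cholesterol and fatty acids across membranes. Of 11 tested, 5 rose and none fell, 4 of them with the correction too. APOE, the carrier of cholesterol outside the liver, was at 3.59, 3.14 and 2.34 CPM in the young libraries and 30.2, 35.9 and 69.7 CPM in the senescent libraries, highest in senescent replicate 3 (3.90 ± 0.35, GC-corrected 2.88). ABCG1, a cholesterol exporter and target of LXR, was at 0.523, 0.411 and 0.298 CPM in the young libraries and 7.14, 6.63 and 6.29 CPM in the senescent libraries (4.01 ± 0.30, GC-corrected 3.59). CD36, a fatty acid carrier, went from 1.05, 1.2 and 0.781 to 3.35, 3.63 and 3.18 CPM (1.73 ± 0.26), APOD rose by 2.59, and PLTP (1.41) was not called with the correction (0.72).

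Cholesterol synthesis is under the SREBP factors, which work with NF-Y at CCAAT boxes. Of 18 promoters in this list, 83.3% held a CCAAT box, against 36.3% of all. The promoter of HMGCS1, which makes the precursor of mevalonate, is shown as the case with 2 of them, at chr5:43313363-43313662 of GRCh38.p14 (minus strand, from RefSeq), with capitals for the words of the earlier search.
HMGCS1: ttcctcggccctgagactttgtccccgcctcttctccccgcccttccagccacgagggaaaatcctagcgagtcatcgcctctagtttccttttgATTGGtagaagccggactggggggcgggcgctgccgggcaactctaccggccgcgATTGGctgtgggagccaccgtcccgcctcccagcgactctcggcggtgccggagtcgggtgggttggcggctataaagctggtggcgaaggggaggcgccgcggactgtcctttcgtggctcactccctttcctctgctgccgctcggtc

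Of 25 cholesterol genes, 5 rose and 1 fell, and with the correction also 5 and 1, of which 2 and 1 were shared. HMGCS1 was at 86.3, 76.9 and 84.4 CPM in the young libraries and 127, 107 and 82.1 CPM in the senescent libraries, with overlap, a log2 fold change of 0.35 ± 0.12 (GC-corrected 0.80). MVD, of the mevalonate pathway, was at 62.3, 59.8 and 58.8 CPM in the young libraries and 208, 175 and 305 CPM in the senescent libraries, and its rise of 1.93 ± 0.15 became 0.99. TM7SF2, a sterol reductase, went from 11.3, 8.22 and 10.4 to 44.4, 35.3 and 46.7 CPM and rose under both (2.08 ± 0.13, GC-corrected 1.20). DHCR7 (1.21) and MVK (1.02) were not called with the correction, and EBP fell by 1.71. MVK was not called without senescent replicate 1 (0.98), senescent replicate 3 (0.87) or young replicate 2 (0.98).

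For fatty acid synthesis, 3 of 17 genes rose and none fell, and 1 rose with the correction. SCD, which makes oleate, was at 560.1, 457 and 456 CPM in the young libraries and 556, 496 and 338 CPM in the senescent libraries, with overlap (−0.08 ± 0.14). FASN, fatty acid synthase, was at 257, 262 and 239 CPM in the young libraries and 441, 423 and 342 CPM in the senescent libraries, without overlap and under the limit (0.67 ± 0.10), and at −0.42 with the correction. LPIN1 rose under both (1.01, GC-corrected 1.07) but not without senescent replicate 1 (0.85) or 2 (0.97), and FADS3 (1.31) and SREBF1 (1.02) not with the correction. SREBF1 was not called without senescent replicate 3 (0.90) or young replicate 3 (0.95).

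Lysosomal genes encode the enzymes that digest what the cell takes up. Of 49, 16 rose and 3 fell, with a median of 0.52, and 10 rose and 3 fell with the correction, 9 and 3 of them under both. FUCA1, alpha-fucosidase, was at 2.75, 3.46 and 2.31 CPM in the young libraries and 40.9, 31.4 and 32.8 CPM in the senescent libraries (3.61 ± 0.19, adjusted p = 1.2e-10, GC-corrected 3.63). CTSF, cathepsin F, was at 4.57, 5.2 and 4.35 CPM in the young libraries and 60.2, 50.7 and 82.9 CPM in the senescent libraries (3.77 ± 0.18, GC-corrected 3.12). GAA, which breaks down glycogen, was at 26.1, 22.5 and 18.4 CPM in the young libraries and 129.9, 124 and 154 CPM in the senescent libraries (2.60 ± 0.15, GC-corrected 1.63), and IDUA, alpha-iduronidase, went from 5.3, 4.7 and 3.61 to 32.8, 30.8 and 52.9 CPM (3.10 ± 0.22, GC-corrected 1.74). GLB1, the beta-galactosidase behind the usual stain for senescent cells, was at 111, 98.2 and 104 CPM in the young libraries and 143, 137 and 145 CPM in the senescent libraries. Its groups were apart, and its log2 fold change of 0.44 ± 0.07 was under the limit. CTSD, cathepsin D, was at 119.9, 125 and 125 CPM in the young libraries and 199, 206 and 346 CPM in the senescent libraries, where 1.02 ± 0.16 as deposited became −0.01, and 48% of its exonic bases are shared. CTSS (−2.13), PPT1 (−1.32) and IDS (−1.72) fell. CTSD was not called without senescent replicate 3 (0.70) or young replicate 1 (0.99).

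Of 18 autophagy genes, 3 rose (16.7%) and none fell, against 16.7% and 11.8% of all genes. None of the 3 was called with the correction, under which 1 fell. ULK1, the kinase that starts autophagy, was at 30.2, 28.6 and 30.9 CPM in the young libraries and 87.3, 116 and 120.1 CPM in the senescent libraries (1.85 ± 0.11, GC-corrected 0.85). MAP1LC3A (1.66, GC-corrected 0.59) and ATG2A (1.30, GC-corrected 0.33) were alike. SQSTM1, the receptor p62, was at 634, 641 and 649 CPM in the young libraries and 864, 1231 and 1407 CPM in the senescent libraries, lowest among senescent libraries in replicate 1 (0.86 ± 0.15, GC-corrected 0.21). SQSTM1 was called without senescent replicate 1 (1.03).

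Of 25 antioxidant genes, 5 rose (20%) and none fell, against 16.7% and 11.8% of all genes. With the correction 2 of them rose (8%) and none fell, against 10.7% and 10.2%. NQO1, a classic NRF2 target, was at 809.7, 841 and 891 CPM in the young libraries and 599, 556 and 675 CPM in the senescent libraries (−0.47 ± 0.11), and HMOX1, heme oxygenase, at 55.4, 55.5 and 49.4 CPM in the young libraries and 63.4, 92.9 and 126 CPM in the senescent libraries (0.82 ± 0.18), neither called. GPX3, the secreted glutathione peroxidase, went from 6.73, 7.87 and 8.74 to 28, 24.7 and 35 CPM (1.91 ± 0.13, GC-corrected 1.46). GPX1 (1.32), SOD3 (1.69) and PRDX2 (1.35) were at 0.27, 0.85 and 0.88 with the correction. Among 6 tested metallothionein and zinc transporter genes, MT2A, which binds zinc and copper, was at 955, 890.1 and 899 CPM in the young libraries and 1340.4, 2157 and 3716 CPM in the senescent libraries, with a wide spread in senescent cells. Its rise of 1.39 ± 0.23 was 0.81 with the correction and 0.92 without senescent replicate 3. MT1X rose from 0.279, 0.294 and 0.521 to 0.595, 2.52 and 3.56 CPM (2.62 ± 0.58), and the zinc importer SLC39A14 fell by 1.17. A metal response element, TGCACNC or TGCGCNC on either strand, stood in 3 of the 4 promoters at hand for this list and in 38.8% of all. HMOX1 was called without senescent replicate 1 (1.03).

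**Figure D5:**
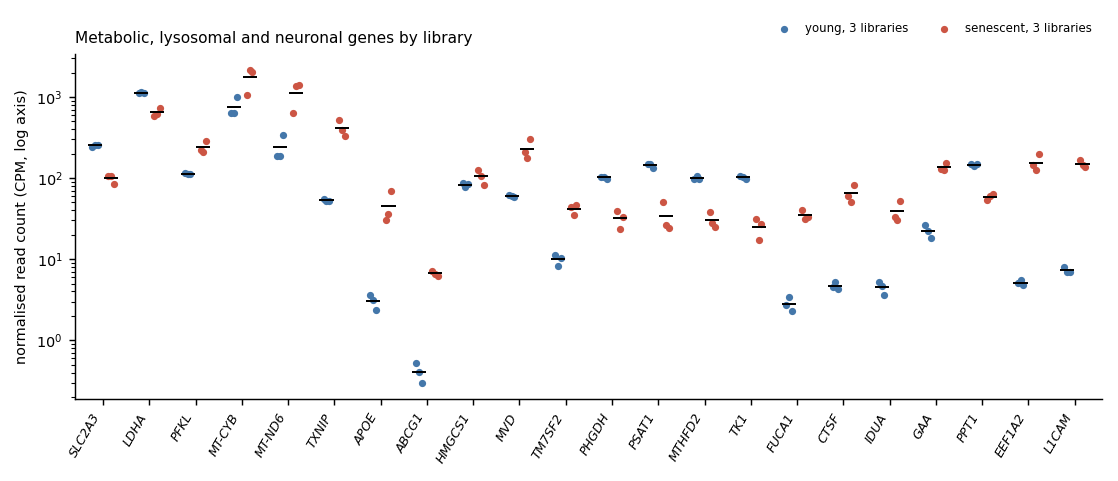
Normalised read counts in CPM on a log axis for 22 metabolic, lysosomal and neuronal genes, with 1 dot for each of the 3 young and 3 senescent libraries and a black bar at the mean. SLC2A3, PHGDH, PSAT1, MTHFD2, TK1 and PPT1 lie lower and TXNIP, APOE, ABCG1, FUCA1, CTSF, EEF1A2 and L1CAM lie higher in all senescent libraries, while HMGCS1 overlaps.

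Genes of protein synthesis seldom rose and fell about as often as all genes. Of 136 tested in 4 lists, 2 rose and 15 fell, or 1.47% and 11% against 16.7% and 11.8%. With the correction 2 and 11 were called (1.47% and 8.09% against 10.7% and 10.2%), none and 8 of these under both. Of 74 cytosolic ribosomal proteins, 70 were not called. Their genes as a class took 4.57% ± 0.06 of counts in young and 4.15% ± 0.96 in senescent libraries (SD, n = 3 each, two-sided exact permutation p = 0.4). RPL22 was an exception, at 396, 402 and 393 CPM in the young libraries and 64.5, 59.2 and 61.8 CPM in the senescent libraries (−2.68 ± 0.08, adjusted p = 1.6e-13, GC-corrected −2.62). RPS28 (1.04) rose and RPS10 (−1.43), under 1 CPM, fell. None of the 3 genes of this list that fell was among the 29 whose exons overlap no other gene. The part of shared exons in these falls was not tested. RPS28 was not called with the correction. RPS10 was not called without senescent replicate 1 (−1.26), senescent replicate 2 (−1.54), young replicate 2 (−1.15) or young replicate 3 (−1.47). RPS28 was not called without senescent replicate 3 (0.73) or young replicate 2 (0.995).

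Ribosome biogenesis, which dividing cells run at a high rate, was lower for 8 of 30 genes and higher for none, 4 of the 8 under both, with 6 lower after the correction. NPM1, nucleophosmin, was at 1149, 1102 and 1119 CPM in the young libraries and 486, 446 and 532 CPM in the senescent libraries (−1.20 ± 0.08, GC-corrected −0.72). UTP20 (−1.38), URB2 (−1.36) and NOP58 (−1.32) also fell, NOP58 not with the correction. Among chaperones of the endoplasmic reticulum, HSPA5, or BiP, was at 1666, 1632 and 1683 CPM in the young libraries and 780.4, 814 and 860.0 CPM in the senescent libraries (−1.02 ± 0.07, GC-corrected −0.80) and HSP90B1 at 1452, 1399.8 and 1368 CPM in the young libraries and 519, 515 and 605 CPM in the senescent libraries (−1.36 ± 0.11, GC-corrected −0.85), 2 of 19 that fell and neither called with the correction, under which 1 of the 19 rose. Of 13 heat shock proteins, the mitochondrial pair HSPD1 (−1.07, GC-corrected −0.73 and not called) and HSPE1 (−1.15) fell and HSPB1 (1.40, GC-corrected 0.35) rose. HSPA5 was not called without senescent replicate 1 (−0.995).

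Immune and signalling genes changed in both directions. Of 134 tested in 6 lists, 25 rose (18.7%) and 29 fell (21.6%), against 16.7% and 11.8% of all genes. With the correction 10 rose (7.46%) and 32 fell (23.9%), against 10.7% and 10.2%, and 10 and 25 were called under both. Of 39 interferon-stimulated genes, 12 fell and 2 rose, or 9 and 1 with the correction. OAS3, a sensor of double-stranded RNA, was at 16.4, 12.5 and 15 CPM in the young libraries and 2.31, 3.67 and 2.46 CPM in the senescent libraries (−2.38 ± 0.18, adjusted p = 1.3e-08, GC-corrected −2.42). MX1, an antiviral GTPase, was at 16.1, 10.1 and 12.9 CPM in the young libraries and 2.01, 4.63 and 4.28 CPM in the senescent libraries (−1.84 ± 0.30). ISG15, a ubiquitin-like protein, was at 42.6, 32.7 and 36.5 CPM in the young libraries and 47.9, 60.5 and 113 CPM in the senescent libraries, at the limit as deposited (0.99 ± 0.22) and at −0.24 with the correction. IFIT1 (−1.11) and GBP1 (−1.24) fell and IFI6 (1.16) rose, none of the 3 with the correction, while IRF9 rose by 1.65 from at most 0.298 CPM with overlapping groups. GBP1 was not called without senescent replicate 2 (−0.98) or senescent replicate 3 (−0.93). IFI6 was not called without senescent replicate 3 (0.73). IFIT1 was not called without senescent replicate 1 (−0.96) or young replicate 1 (−0.95). IRF9 was not called without senescent replicate 3 (1.01), young replicate 1 (1.60) or young replicate 2 (1.49). ISG15 was called without senescent replicate 1 (1.21), senescent replicate 2 (1.11) or young replicate 1 (1.09).

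Antigen presentation shows peptides to T cells. Of its 14 genes tested, HLA-C (1.16) and HLA-E (1.10) rose and ERAP1 (−1.01) fell, and none was called with the correction. HLA-B was at 207, 189.6 and 190.5 CPM in the young libraries and 304, 278 and 434 CPM in the senescent libraries, without overlap (0.79 ± 0.13, GC-corrected 0.45). ERAP1 was not called without senescent replicate 3 (−0.82) or young replicate 1 (−0.95). HLA-C was not called without senescent replicate 3 (0.97).

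NF-kappaB target genes fell where they changed. Of 14, 5 fell and none rose, and 6 fell with the correction. NFKBIA, the inhibitor that NF-kappaB itself induces, was at 37.5, 34.6 and 40.5 CPM in the young libraries and 29.6, 34 and 42.7 CPM in the senescent libraries, with overlap (−0.08 ± 0.12). TNFAIP6, which modifies hyaluronan in inflamed tissue, was at 7.01, 8.66 and 9.82 CPM in the young libraries and 0.0744, 0.444 and 0.259 CPM in the senescent libraries (−5.01 ± 0.28, GC-corrected −4.39). The adhesion molecules VCAM1 and ICAM1 were at 5.09, 4.05 and 2.75 CPM in young and 0.186, 0.222 and 0.0324 CPM in senescent libraries, and at 23.7, 22.6 and 21.5 CPM in young and 8.03, 9.3 and 7.39 CPM in senescent libraries, in that order (−4.77 ± 0.38 and −1.46 ± 0.12). TNFAIP3 (−1.53) and BIRC3 (−2.19) fell as well.

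Immediate early genes, which respond to serum and stress within minutes, fell in part. Of 14 AP-1 and immediate early genes, 4 fell and none rose, and 7 fell with the correction. FOS was at 50.6, 51.4 and 30.3 CPM in the young libraries and 4.69, 12.6 and 13.9 CPM in the senescent libraries (−2.08 ± 0.36, adjusted p = 9.2e-05) and EGR1 at 162, 242 and 178 CPM in the young libraries and 41.4, 45.4 and 45.1 CPM in the senescent libraries (−2.14 ± 0.20, adjusted p = 1.1e-07), without overlap. FOSB (−2.08) and BATF3 (−1.31) also fell, BATF3 not without senescent replicate 2 (−0.99).

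In the Notch pathway, 3 of 16 genes rose (18.75%) and 2 fell (12.5%), against 16.7% and 11.8% of all genes. With the correction 1 rose (6.25%) and 3 fell (18.75%), against 10.7% and 10.2%. The ligand JAG2 was at 0.139, 0.117 and 0.0744 CPM in the young libraries and 5.17, 4.59 and 7.23 CPM in the senescent libraries (5.62 ± 0.39, adjusted p = 4.0e-09, GC-corrected 4.59). The related ligand JAG1 was at 25, 23.9 and 23.9 CPM in the young libraries and 53.1, 42.8 and 29.1 CPM in the senescent libraries, without overlap and not called (0.78 ± 0.15). DLL4, another ligand, fell by 1.45, and the target gene HES1 went from 3.52, 3.99 and 2.34 to 0.0372, 0.889 and 0.648 CPM (−2.63 ± 0.43). HES4 (1.84) and RFNG (1.13) rose as deposited, with GC contents of 73.8% and 66.9%, and were at −0.15 and −0.07 with the correction. RFNG was not called without senescent replicate 3 (0.83).

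Synaptic and neuronal genes serve functions that fibroblasts do not have. Of 37 tested, 18 rose (48.6%) and 5 fell (13.5%), against 16.7% and 11.8% of all genes. With the correction 8 rose (21.6%) and 7 fell (18.9%), against 10.7% and 10.2%, 8 and 5 of them under both. The median of 0.65 became 0.10, and the median GC content of the list was 56.6%. EEF1A2, an elongation factor of neurons and muscle (chr20:63488013-63499239), was at 5.09, 5.61 and 4.76 CPM in the young libraries and 143, 126 and 196 CPM in the senescent libraries (4.91 ± 0.16, adjusted p = 5.1e-13, GC-corrected 3.79). L1CAM, an adhesion molecule of axons, was at 7.98, 6.96 and 6.96 CPM in the young libraries and 168, 146 and 138 CPM in the senescent libraries (4.37 ± 0.16, GC-corrected 3.62). DPYSL3, which steers growth cones, was at 266, 246 and 244 CPM in the young libraries and 76.7, 57.4 and 44 CPM in the senescent libraries (−2.09 ± 0.15). SYT1 (−1.68), NLGN1 (−2.07), GAP43 (−1.65) and CNTN1 (−4.60) fell, from at most 18.2 CPM.

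Some genes changed by far more than the programmes around them. Among genes with a mean of at least 5 CPM in young cells, 75 fell by 5 or more on the log2 scale, a set described here after its values were seen. Of these, 66 (88%) share at least 20% of their exonic bases with another gene, against 13.5% of all tested genes. In 72 of the 75 the fall was also at least 5 between senescent and young cells that express TRF2. The gene counts are those of STAR, which leaves out reads that overlap more than 1 gene, so that the count of a gene that shares exons depends on the annotation. Its release is not given in the sources used here. Whether senescent and young libraries were counted with the same release is not given either. The glycolytic enzymes ALDOA and LDHB belong to this set. ALDOA was at 1053, 1084 and 1058 CPM in the young libraries and 1.6, 2.63 and 2.85 CPM in the senescent libraries and LDHB at 758, 721 and 724 CPM in the young libraries and 1.00, 1.44 and 1.91 CPM in the senescent libraries, with 54.2% and 33.4% of exonic bases shared. ASNS, asparagine synthetase, was at 89, 90.8 and 84.4 CPM in the young libraries and 0.223, 0.222 and 0.389 CPM in the senescent libraries (49.3% shared) and SDHA, of complex II, at 127, 127 and 122 CPM in the young libraries and 1.82, 2.67 and 2.07 CPM in the senescent libraries (21.7% shared).

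Some genes in this set had no count at all in senescent cells. UTP14C, SUPT4H1, EVA1B, FAM220A and SPOUT1 had means of 18.2 to 31.0 CPM in young cells and 0 in all senescent libraries, and 89.9% to 100.0% of their exonic bases are shared. Against a floor of 3 counts over the group, UTP14C was at least 877-fold lower and SPOUT1 at least 514-fold lower.

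Of the falls with under 20% of exonic bases shared, the 10 largest in protein-coding genes with a mean of at least 5 CPM over the 6 libraries included, with ELN, those of OPN1SW (−7.46), PCDH10 (−6.62), HEPH (−5.57), ATXN7 (−5.47), RABAC1 (−5.13), SLC7A14 (−5.07), TOX (−4.93) and GNG5 (−4.90). PCDH10, a protocadherin (chr4:133149294-133208606), was at 12.5, 14.5 and 16.1 CPM in the young libraries and 0.112, 0.222 and 0.0972 CPM in the senescent libraries. HEPH, a ferroxidase that helps iron leave cells, was at 11.3, 9.63 and 10.01 CPM in the young libraries and 0.223, 0.185 and 0.227 CPM in the senescent libraries. Both were far apart between the groups and shared no exonic base with another gene.

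Among genes with a mean of at least 5 CPM in senescent cells, 17 rose by 5 or more on the log2 scale, of which 3 share at least 20% of their exonic bases and 15 also rose by at least 5 in the cells that express TRF2. GSN, gelsolin, which severs actin filaments (chr9:121207794-121332843), was at 1.64, 1.56 and 2.38 CPM in the young libraries and 629, 512 and 694 CPM in the senescent libraries (8.37 ± 0.25). PALM2AKAP2 (chr9:109498325-110172512) was at 0 in all young libraries and at 844, 604 and 316 CPM in senescent libraries, at least 17577-fold higher against a floor of 3 counts over the group. ZBTB9 was likewise at 0 and at 10.9, 13.6 and 12.5 CPM, at least 369-fold higher. POLR2F (10.35), RIPOR1 (6.07), ZSCAN32 (5.68), ASB3 (5.57) and PNMA2 (5.48) were with these 3, C7 and EEF1A2 the 10 largest rises of protein-coding genes with a mean of at least 5 CPM and under 20% of exonic bases shared. The shares rest on the gene positions used here, which need not be those of the counting. RN7SL1, among the 17, was at 0 in all young libraries and at 55.3, 31.1 and 30.03 CPM in the senescent libraries. RN7SL2 went the other way, from 12.5, 14.4 and 14.7 CPM to 0 in all senescent libraries. Whether senescent and young libraries were counted in the same way is not stated, and its part in these rises was not tested.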

How the data were processed

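RNA was sequenced from MRC-5 fibroblasts after extraction with an RNeasy Plus Mini kit. Reads were trimmed (Trimmomatic) and mapped to GRCh38 and counted with STAR by the authors, who deposited raw counts per gene, without normalization, for 57272 genes, of which 324 are absent from GENCODE 44. The annotation release and the strand setting of the counting are not given in the sources used here. All 15 columns were assigned to samples by their names.

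Counts were normalised by TMM and filtered with filterByExpr, and all 15 libraries were fitted in edgeR 4.0.16 (R 4.3.3) with 5 group means, the quasi-likelihood test and Benjamini-Hochberg adjustment over 15799 genes. DESeq2 1.42.0 served as an alternative. Offsets for exonic GC content and then length came from a loess curve per library (span 0.3, prior count 1). The fits were tested on simulated data. Figures and counts used Python 3.11.15 with pandas 2.3.3.

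The 53 gene lists, with 1281 genes of which 1196 were tested, and the other members and tests were chosen with earlier results of these data known. Named were a list of landmark genes, up to 4 genes of each list with the largest changes at a mean of at least 5 CPM, without overlap of the groups and with under 20% of exonic bases shared, the 10 largest rises and falls by the same filters, the 5 largest falls without the last filter, and the members called in a direction where a list had 5 or fewer. Genes of the sex chromosome Y were left out, and some other genes that this rule names are not reported here. Alternatives covered the scaling, the filter, the tool, the samples, the offsets, the thresholds, shared exons, the replicate block and each library left out.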

Additional observations from a re-analysis of the deposited data

Results flagged for a closer look

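The change between senescent and young cells was set against the same change in cells that express TRF2, where senescence came at population doubling 75. The difference (empty vector minus TRF2, log2 ± SE) was tested with edgeR's quasi-likelihood test over 15799 genes. Its adjusted p was below 0.05 for 177 of them, of which 20 were among the 328 named. Many of the 328 were named for a large change in the empty-vector cells, which enters this difference. The counts over named and over all genes are therefore not compared. The difference was taken from the counts as deposited and was not repeated with the GC correction. How far GC content enters these differences was therefore not tested.

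Several of these 20 were secreted and immune genes. CXCL8 differed by 3.88 ± 0.70, with −1.99 in empty-vector and −5.87 in TRF2 cells. IL6 differed by 1.26 ± 0.28, with 0.17 and −1.09. C3 differed by 2.97 ± 0.57, SERPINB2 by 2.17 ± 0.34, C7 by 1.86 ± 0.42, GDF15 by 1.41 ± 0.25 and CXCL12 by −1.08 ± 0.25. The interferon-stimulated genes IFI6 and MX1 differed by 2.11 ± 0.41 and 1.93 ± 0.44. Of the matrix, LAMB3 differed by 1.29 ± 0.27 and GPC4 by −0.71 ± 0.16.

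The other genes belong to metabolism and division. HEPH differed by 3.95 ± 0.82, the largest of the 20. MT-ND5 differed by 1.60 ± 0.36, MT-ND6 by 1.60 ± 0.35 and MT-CYB by 1.41 ± 0.31. MT2A differed by 1.53 ± 0.32 and CEBPB by 0.85 ± 0.18. The cell cycle genes RAD51AP1, CDK1 and TOP2A differed by 1.25 ± 0.26, 1.00 ± 0.16 and 0.79 ± 0.18, each with a smaller fall in the empty-vector cells. The difference in passage number between the 2 kinds of senescent cells cannot be told apart from that in TRF2.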

How the results depend on the processing

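Counts of called genes, of 2632 higher and 1857 lower, came to 2676 and 1854 with DESeq2, 2218 and 1700 from the 6 libraries alone, and 2578 and 1875 with a replicate block. The replicate numbers were not taken to pair the libraries. Deviations from the group mean correlated at 0.061, 0.0016 and −0.0015 between libraries of equal number, and not every library matched its own number best. With 3 libraries a group, such correlations cannot decide whether the numbers pair the libraries. GC and length offsets gave 1692 genes higher, with 1 cell cycle, 3 arrest, 33 metabolic and 10 immune and signalling genes higher. GC offsets alone gave 1733, 1, 3, 34 and 10, with 9 protein synthesis genes lower, and the replicate block with offsets 1664, 1, 3, 33 and 10. Raising the limit on the log2 fold change to 2 left 882 higher and 734 lower (cell cycle 1 higher, arrest 0 higher, secreted 23 and 23, matrix 11 and 21, metabolic 12 and 13, protein synthesis 0 and 3, immune and signalling 7 and 13). No fold limit gave 5165 and 5038 (cell cycle 6 higher, arrest 19 and 12, secreted 71 higher, matrix 56 and 64, metabolic 150 and 111, protein synthesis 17 and 69, immune and signalling 42 and 52). Genes whose exons overlap no other gave 1280 and 831 (cell cycle 0 and 85, arrest 2 and 1, secreted 30 and 24, matrix 18 and 15, metabolic 34 and 13, protein synthesis 1 and 5, immune and signalling 10 higher), being fewer genes.

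Leaving out each library in turn gave 2190 to 2906 genes higher and 1766 to 2088 lower, 1 to 2 cell cycle and 3 to 6 arrest genes higher, and 1 to 5 protein synthesis genes higher. The 3 arrest genes and 35 of the 328 named genes losing their call came without senescent replicate 3. The 5 protein synthesis genes came without senescent replicate 1, 1 without senescent replicate 3 or young replicate 2, and the 1 cell cycle gene without young replicate 1.

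Of the named genes, 72 lost their call with the GC and length offsets, 6 of them with the sign turned. Signs turned, in the order of replicate block with offsets, offsets and GC offsets alone, for ACADS (−0.0023, −0.0044 and −0.064), AGRN (−0.071, −0.067 and −0.040), CEBPB (−0.15, −0.15 and −0.17), CTSD (−0.012, −0.0067 and −0.025), HES4 (−0.15, −0.15 and −0.055) and RFNG (−0.072, −0.071 and −0.12). With GC offsets alone ATP5F1D (−0.030) and BBC3 (−0.022) turned, and IGFBP6 (−0.0024) with the block and offsets. The cause was not tested beyond the GC content of these genes. With 3 libraries a group, p-values of single genes near the limits are the least firm, and counts under about 1 CPM rest on few reads.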
